A study of Mus musculus with 4 samples.

Results

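The acute phase and calgranulin genes described here are Saa1, Saa2, Saa3, Lcn2, Hp, Orm1, Lbp, S100a8, S100a9 and Slpi. They were taken by gene name, listed or current, and make up 10 of the 27734 gene names and 12 of the 41174 probes on the array, with 2 probes each for Saa1 and Slpi and 1 for every other gene. The samples were enterocytes isolated from small bowel of IKKb(EE)IEC mice and of their wild-type (WT) littermates, with 2 biological replicates of each genotype on 1 one-colour array each. IKKb(EE)IEC mice carry, in intestinal epithelial cells, a form of the kinase IKKb that stays active without a stimulus and so keeps the transcription factor NF-kB switched on. The sources used here do not name the strain, the age, the sex, the promoter that drives the kinase or how many mice a sample holds. The design asks what constant IKKb activity does to the transcripts of the epithelium, and these genes are among those that inflammation is known to induce.

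Serum amyloid A (SAA) proteins are small apolipoproteins of the acute phase response. The liver releases them into plasma after injury or infection, and the gut epithelium also makes them in response to bacteria and cytokines. Cytokines such as IL-6, IL-1 and TNF induce them through the transcription factors STAT3, C/EBP and NF-kB. Lipocalin-2 (Lcn2) binds bacterial siderophores and so withholds iron, haptoglobin (Hp) binds free haemoglobin, orosomucoid 1 (Orm1) is a plasma carrier glycoprotein, and Lbp presents lipopolysaccharide to CD14. S100a8 and S100a9 form calprotectin, which chelates zinc and manganese and fills the cytoplasm of neutrophils. Slpi is an inhibitor of serine proteases at mucosal surfaces, neutrophil elastase among them.

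The 250 bases upstream of the start used in the promoter table are shown for the SAA genes, since these were the members whose signals were highest in IKKb(EE)IEC (RefSeq, GRCm38.p6, 5′ to 3′ on the strand of the gene). That start is not the outermost one for Saa1 and Saa3: the Saa1 window overlaps the annotated gene in part and the Saa3 window lies inside it. Capitals mark a match to the C/EBP motif TTNNGCAAT, which reads on the opposite strand in both genes that hold it. The windows are chr7:46742981-46743230 on the minus strand for Saa1, chr7:46751583-46751832 on the plus strand for Saa2 and chr7:46715677-46715926 on the minus strand for Saa3.
Saa1: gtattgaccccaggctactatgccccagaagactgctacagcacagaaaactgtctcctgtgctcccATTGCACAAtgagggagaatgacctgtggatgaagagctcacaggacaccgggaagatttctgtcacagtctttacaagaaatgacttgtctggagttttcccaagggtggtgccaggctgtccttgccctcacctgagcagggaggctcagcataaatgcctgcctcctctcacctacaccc
Saa2: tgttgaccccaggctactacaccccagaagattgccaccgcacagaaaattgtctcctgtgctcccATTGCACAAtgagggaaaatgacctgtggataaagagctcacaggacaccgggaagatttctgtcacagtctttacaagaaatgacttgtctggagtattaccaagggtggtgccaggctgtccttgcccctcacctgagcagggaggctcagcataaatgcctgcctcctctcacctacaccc
Saa3: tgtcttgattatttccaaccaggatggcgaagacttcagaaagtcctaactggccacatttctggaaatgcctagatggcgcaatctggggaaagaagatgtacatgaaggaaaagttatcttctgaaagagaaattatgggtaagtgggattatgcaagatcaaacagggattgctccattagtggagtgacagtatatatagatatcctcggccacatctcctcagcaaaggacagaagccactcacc
The Saa1 and Saa2 windows shared 94.8% of aligned positions, and each held the C/EBP match at about the same place, from -183 to -175 in Saa1 and from -184 to -176 in Saa2 relative to that start. Saa3 shared 48.9% with Saa1 and 47.9% with Saa2. Windows were searched on both strands for TTNNGCAAT, for the STAT motif TTCNNNGAA, for TATAAA and for the NF-kB consensus. Of 32851 promoter windows of the same length, 1.93% held TTNNGCAAT, 7.02% TTCNNNGAA, 12.4% TATAAA and 3.90% the NF-kB consensus. In the 3 SAA windows the other motifs had no match, which says only that these letters are not there. Among the other members with a window, Slpi held TTNNGCAAT and S100a8 held TATAAA.

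Detection set what could be compared. The plot of signal by array shows which members were detected. Values are log2 of the scanner's processed signal minus the array's 75th percentile, so 0 is the level of that percentile, and the scanner marks a spot as well above background or not. Saa1, Saa2 and Slpi had a probe well above background on all 4 arrays, Saa3 on 3, Hp and S100a9 on 1 and Lcn2, Orm1, Lbp and S100a8 on none. A gene was tested where a probe was well above background on at least 2 arrays, which left 4 of the 10 members and 12446 genes in all. The 4 arrays shared a slide and a scan, but IKKb(EE)IEC took positions 3 and 4 and WT positions 1 and 2, so position and genotype cannot be told apart. The share of probes well above background was 40.8% and 41.1% in IKKb(EE)IEC, against 34.3% and 36.0% in WT. All 11 markers of small intestinal epithelium, among them Epcam, Vil1 and Krt20, were well above background on all 4 arrays.

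**Figure D1:**
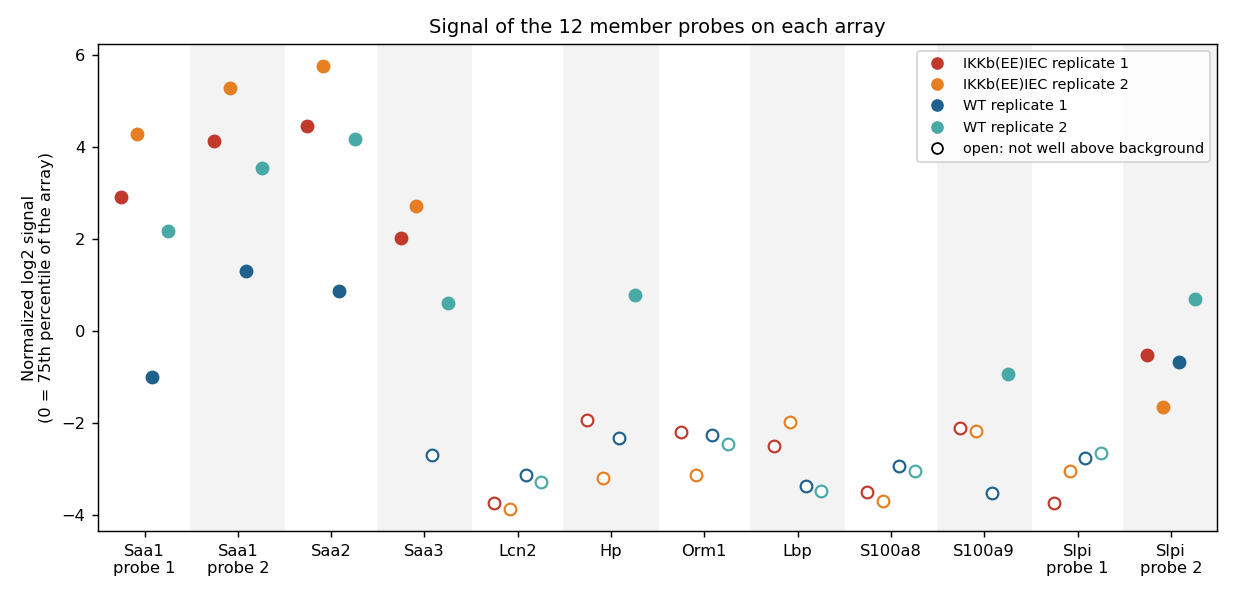
Normalized log2 signal (vertical axis, 0 at the array's 75th percentile) of the 12 probes of the 10 genes, 1 point per array, open where the spot was not well above background. For Saa1, Saa2 and Saa3 both IKKb(EE)IEC arrays lie above both WT arrays, and WT replicate 2 lies 2.24 to 3.30 above WT replicate 1.

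The SAA genes had higher signals in IKKb(EE)IEC, the WT arrays were far apart, and no member passed the test. Saa1 was at 4.12 and 5.28 in IKKb(EE)IEC, against 1.3 and 3.54 in WT (normalized log2 signal). Saa2 was at 4.45 and 5.76 in IKKb(EE)IEC, against 0.87 and 4.17 in WT. Saa3, which macrophages and epithelia are known to express, was at 2.03 and 2.73 in IKKb(EE)IEC, against -2.70 and 0.60 in WT, where the first WT value was not well above background. In each case the groups did not overlap, and the lower IKKb(EE)IEC array exceeded the higher WT array by 0.59, 0.28 and 1.43 for Saa1, Saa2 and Saa3 on the log2 scale.

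Over n = 2 arrays of each genotype, the log2 fold change of IKKb(EE)IEC over WT (± standard error from limma) was 2.28 ± 0.78 for Saa1, a 4.87-fold difference (limma, adjusted p = 0.0953, 95% interval 0.35 to 4.22). It was 2.58 ± 1.08 for Saa2, a 6.0-fold difference (limma, adjusted p = 0.142, interval -0.12 to 5.28). It was 3.43 ± 1.03 for Saa3 (limma, adjusted p = 0.0759, interval 0.85 to 6.0), a size that rests in part on the dim spot of WT replicate 1. The intervals are not adjusted for the number of genes. Of the 4 members tested, 0 were called at an adjusted p below 0.05, 0 higher and 0 lower, against 15.1% of all genes tested, 7.97% higher and 7.17% lower. At an unadjusted p below 0.05 there were 2, Saa1 and Saa3, against 38.1% of all genes. Both IKKb(EE)IEC arrays lay above both WT arrays for 3 of the 4, against 28.3% of all genes, and below both for none, against 40.9%. These 3 were at least 4-fold higher, as were 1.8% of all genes. In bulk RNA, fewer cells of a type and less RNA per cell cannot be told apart.

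The SAA calls changed when a WT array was left out. Without WT replicate 1 the log2 fold changes were 1.17 for Saa1, 0.94 for Saa2 and 1.78 for Saa3, and Saa1 and Saa3 passed (limma, adjusted p = 0.0177 and 0.000266) while Saa2 did not (adjusted p = 0.0623). Without WT replicate 2 they were 3.40, 4.23 and 5.08, and all 3 passed (limma, adjusted p = 2.71e-05, 1.08e-05 and 1.10e-07). A fit without 1 WT array takes the remaining one to vary as the IKKb(EE)IEC arrays do, and it called 49.5% and 33.5% of all genes. Without IKKb(EE)IEC replicate 1 or 2 none of the 3 passed, with values of 2.86 and 1.71 for Saa1, 3.24 and 1.93 for Saa2 and 3.78 and 3.08 for Saa3. Those fits, with 1 IKKb(EE)IEC array left, called far fewer of all genes than the main fit, so a lost call was common. With a shift by the array median all 4 members were called, against 16.1% of all genes, in a fit that gave each gene the same standard error of 0.32. With no filter on dim probes 0 of the 10 members were called, against 3.04% of genes.

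For Saa3, whose probe was dim in WT replicate 1, the size also depended on the background correction. It was 1.55 ± 0.30 in the authors' value table (limma, adjusted p = 0.0340), 2.00 ± 0.37 with a background taken from negative control spots (adjusted p = 0.0202) and 1.02 ± 0.35 with a normexp correction (adjusted p = 1.00). Saa3 was the 1 member called in each of the first 2 of these, which called 14.3% and 16.2% of all genes.

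**Figure D2:**
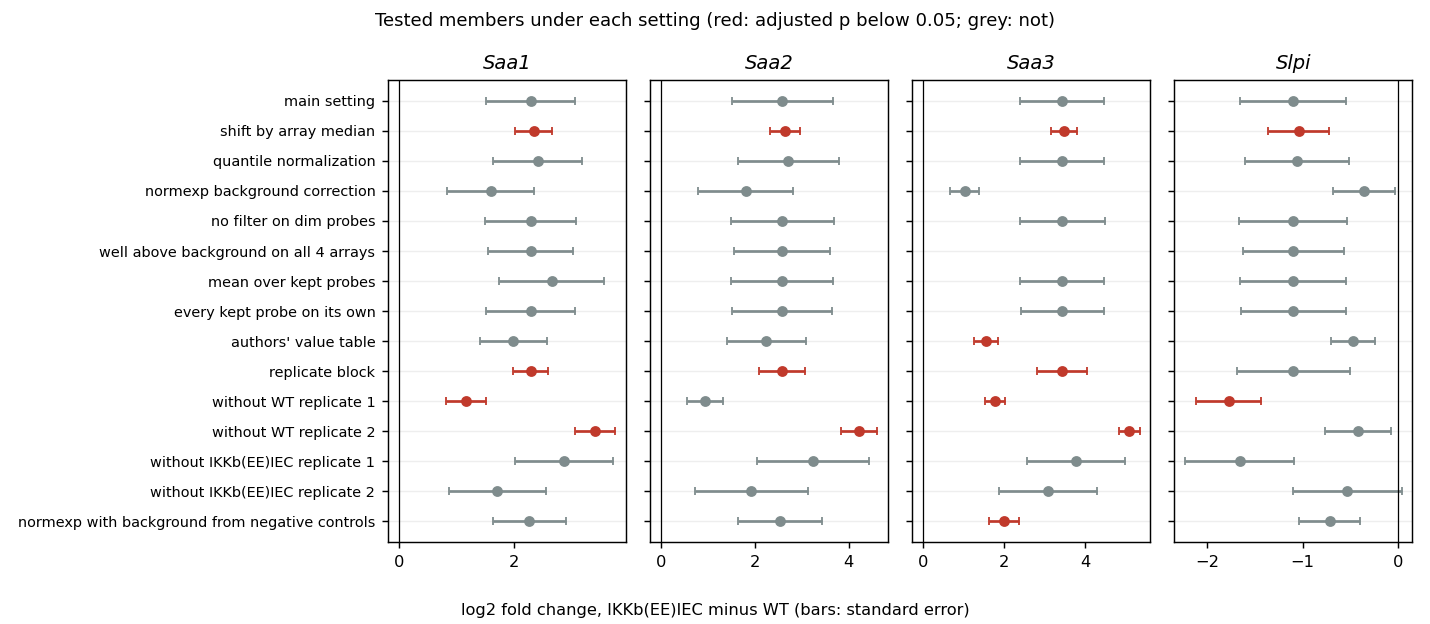
Log2 fold change (IKKb(EE)IEC minus WT, horizontal axis, bars are standard errors) of the 4 tested members under the main setting and each alternative, in red where the adjusted p was below 0.05. The SAA genes stay above 0 and Slpi below 0 in every setting drawn, and the calls change between settings.

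The probes of the SAA genes are not independent of each other. A second Saa1 probe, at 2.90 and 4.28 in IKKb(EE)IEC and at -1.0 and 2.17 in WT, gave a log2 fold change of 3.01 ± 1.05 (limma over all probes, adjusted p = 0.103). The Saa1 transcript is also listed among the targets of the Saa3 probe, and mouse Saa1 and Saa2 are close copies, so their signals may overlap. The probes lie on chromosome 7 (mm8) at 46608742 to 46608801 for the brighter Saa1 probe, 46622207 to 46622266 for Saa2 and 46580703 to 46580762 for Saa3. The second Saa1 probe is listed over 473 bases, from 46608839 to 46609311, where most member probes are listed over 60. The sources used here do not name the exons.

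The replicates of both genotypes differed in SAA signal, WT more than IKKb(EE)IEC. WT replicate 2 exceeded WT replicate 1 by 4.72-fold for Saa1 and 9.81-fold for Saa2. For Saa3 the gap was 3.30 on the log2 scale, a rough value since WT replicate 1 was not well above background. Over the 12446 genes the median absolute gap between the WT arrays was 0.29 on the log2 scale, and 54 genes had a gap at least as large as that of Saa1, 10 as that of Saa2 and 9 as that of Saa3, each count including the gene itself. In IKKb(EE)IEC, replicate 2 exceeded replicate 1 by 2.22-fold for Saa1, 2.48-fold for Saa2 and 1.62-fold for Saa3, against a median absolute gap of 0.15 on the log2 scale. Gaps at least as large were found between the IKKb(EE)IEC arrays for 34, 16 and 225 genes. Cebpd, which encodes an acute phase transcription factor of the C/EBP family, had a WT gap in the same direction. It was at 3.05 and 3.91 in IKKb(EE)IEC and at 2.07 and 4.97 in WT, and its log2 fold change was -0.04 ± 0.92 (limma, adjusted p = 0.977).

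**Figure D3:**
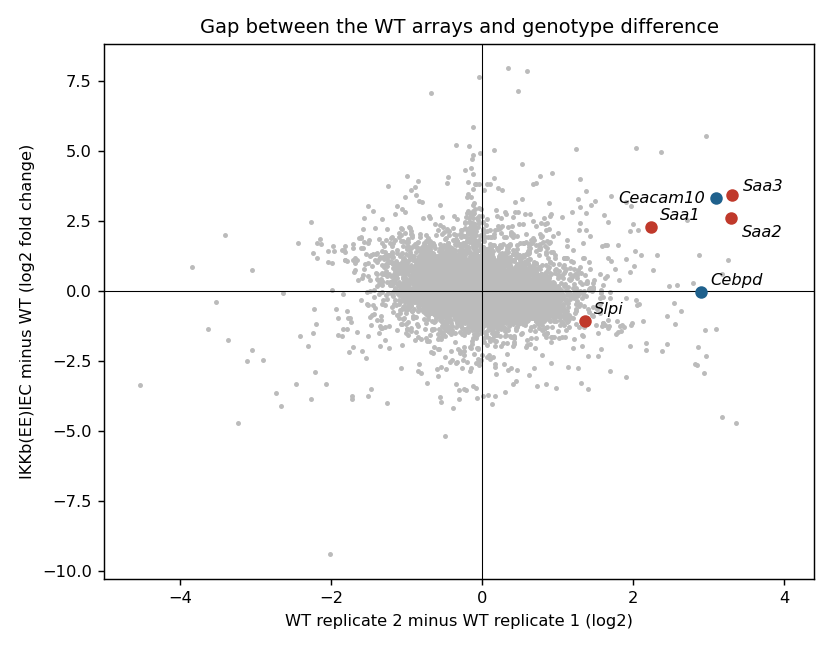
Log2 fold change between genotypes (vertical axis, IKKb(EE)IEC minus WT) against the gap between the WT arrays (horizontal axis, replicate 2 minus replicate 1) for the 12446 genes tested, 1 grey point per gene. Saa2 and Saa3, in red, lie at the far right with gaps of 3.29 and 3.30 (for Saa3 against a dim spot), beside Ceacam10 in blue.

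Several but not all transcripts of hepatocytes, the main known source of SAA and of haptoglobin, moved with the gap between the WT arrays. Of 11 hepatocyte markers on the array, 2 and 2 were well above background in IKKb(EE)IEC replicates 1 and 2, against 3 and 9 in WT replicates 1 and 2. Albumin (Alb) was at -3.73 and -3.90 in IKKb(EE)IEC and at -2.01 and 1.68 in WT, and the fetuin gene Ahsg at -3.86 and -4.01 in IKKb(EE)IEC and at -1.79 and 2.18 in WT. The summed level of the list, in units of the 75th percentile, was 20.4 and 17.9 in IKKb(EE)IEC and 26.9 and 50.1 in WT. Cps1, which enterocytes also express, held much of it except in WT replicate 2, where Mup1 was higher than Cps1 (4.32 against 3.86 on the log2 scale). Neither IKKb(EE)IEC array had Alb, Ahsg, Fgb, Fgg, Apoh, Mup1 or Cyp2e1 well above background, and both had Cps1 and Tat. Ttr and Fga were well above background on no array of either genotype. Cps1 was lower in WT replicate 2 than in WT replicate 1, at 3.86 against 4.42. Of the 3 markers tested, Mup1 fell (limma, adjusted p = 0.0405) and 2 did not pass, against 7.17% of all genes that fell. Mup1 was at -2.09 and -2.11 in IKKb(EE)IEC and at 0.96 and 4.32 in WT. It passed the filter through WT alone. The part of hepatocyte RNA in the SAA signal was not tested for WT replicate 2 or for any other array.

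**Figure D4:**
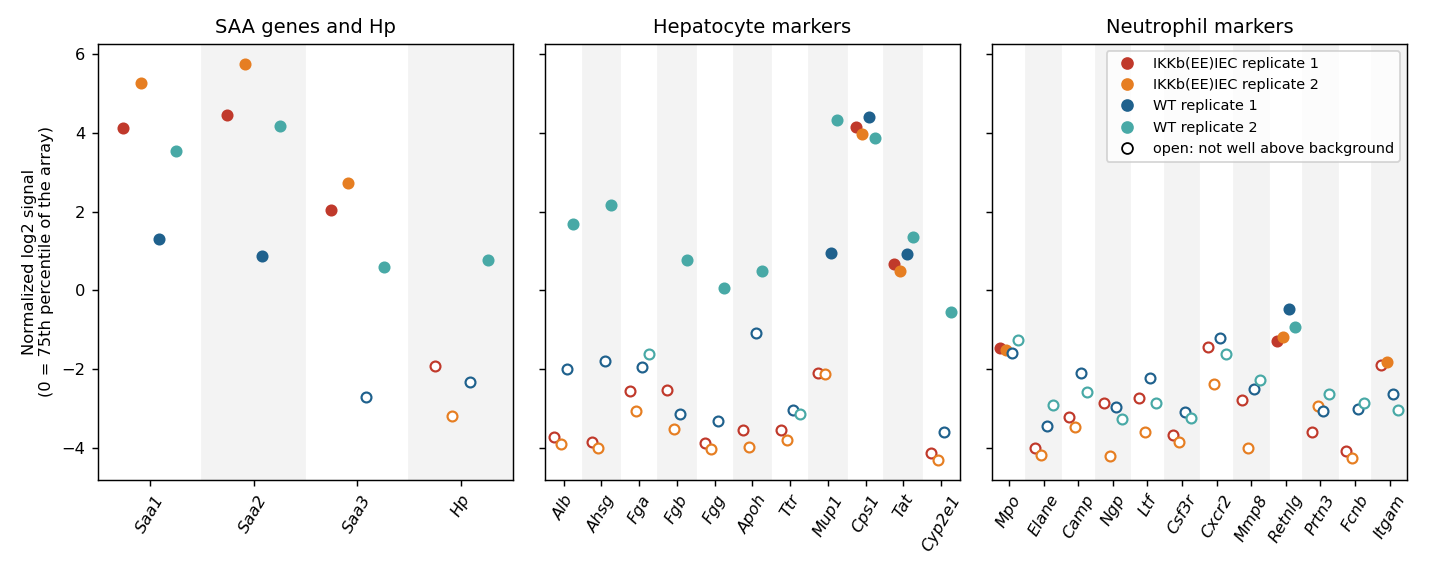
Normalized log2 signal (vertical axis) of the SAA genes and Hp, of 11 hepatocyte markers and of 12 neutrophil markers, 1 point per array, open where not well above background. Alb, Ahsg, Fgb, Fgg, Apoh and Cyp2e1 were well above background in WT replicate 2 alone, as was Hp.

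Hp was detected on the array that also held most hepatocyte markers. It was at -1.93 and -3.18 in IKKb(EE)IEC and at -2.34 and 0.78 in WT, and only WT replicate 2 was well above background. With all dim spots at their own values, the mean of Hp was 3.43-fold lower in IKKb(EE)IEC. That value has no test and is not a limit, since the WT mean includes the dim spot of replicate 1. It rests on WT replicate 2, since without it no array measured Hp. The probe lies on chromosome 8 from 112464401 to 112464460 (mm8).

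Neither calgranulin gave a difference that could be measured. S100a8 had a substituted value on all 4 arrays, which the scanner software gives to spots at background, with processed signals of 8.41 and 8.34 in IKKb(EE)IEC and 7.87 and 8.02 in WT. S100a9 was at -2.10 and -2.16 in IKKb(EE)IEC and at -3.52 and -0.94 in WT, and was well above background in WT replicate 2 alone. Neutrophil markers, whose cells hold most calgranulin RNA, were largely dim. Of 12 on the array, 9 were well above background nowhere, among them Elane, Ltf, Camp and Csf3r, and the summed level was 2.23 and 1.87 in IKKb(EE)IEC and 2.85 and 2.55 in WT. Mpo and Retnlg were tested and did not pass. The marker Ly6g was not analysed here.

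Lcn2, a textbook target of NF-kB in epithelia, was not detected at this sensitivity. Its probe, on chromosome 2 from 32207526 to 32207770 (mm8), had a substituted value on all 4 arrays, with processed signals of 7.12 and 7.36 in IKKb(EE)IEC and 6.91 and 6.82 in WT. It is the sole Lcn2 probe on the array and is listed over 245 bases, so no second probe bears on whether it can measure the transcript.

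Lbp and Orm1 were also not well above background on any array. Lbp had processed signals of 16.8 and 27.5 in IKKb(EE)IEC, against 5.82 and 5.92 in WT. Both IKKb(EE)IEC values were thus higher, but none was well above background and both WT values were substituted, so no fold is given. Orm1 had processed signals of 20.7 and 12.4 in IKKb(EE)IEC and 12.5 and 12.1 in WT. The flag does not follow 1 level of signal. The lowest normalized log2 value of any probe well above background was -3.77 and -3.83 in IKKb(EE)IEC, against -2.84 and -2.62 in WT.

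Slpi had a lower mean in IKKb(EE)IEC and did not pass the test. Its brighter probe, on chromosome 2 from 164045554 to 164045613 (mm8), was at -0.52 and -1.65 in IKKb(EE)IEC, against -0.67 and 0.69 in WT, so the groups overlapped. The log2 fold change was -1.10 ± 0.56 (limma, adjusted p = 0.202, n = 2 arrays per genotype, 95% interval -2.49 to 0.29). It was -0.47 ± 0.23 in the authors' value table and -0.72 ± 0.32 with the negative-control background, and did not pass in either. It was -1.78 without WT replicate 1, which passed (limma, adjusted p = 0.00174), and -0.42 without WT replicate 2, which did not. Leaving out an IKKb(EE)IEC array gave -1.66 (replicate 1 out) and -0.53 (replicate 2 out), and neither passed. The second Slpi probe was not well above background on any array.

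Among genes that induce or control the acute phase response, 3 of 21 tested rose, none fell and 18 did not pass (over all genes 7.97% rose and 7.17% fell), with a median log2 fold change of 0.36 against -0.12 over all genes. Tnf, the inflammatory cytokine, was not well above background in WT and was at least 5.44-fold higher in IKKb(EE)IEC (limma, adjusted p = 0.00218), with values of -0.38 and -0.19 in IKKb(EE)IEC and -2.86 and -2.93 in WT. Zc3h12a, which encodes the mRNA-degrading enzyme Regnase-1, was at least 2.00-fold higher (limma, adjusted p = 0.0259). Tnf, Zc3h12a, Il1rn, Cebpa and Traf3ip2 were well above background on both IKKb(EE)IEC arrays and on neither WT array. They passed the filter through IKKb(EE)IEC alone, and no gene of the list passed it through WT alone. The filter can therefore raise the count of rises and the median of this list. Cebpb, which encodes an activator of acute phase promoters, had a value of 0.85 ± 0.23 (adjusted p = 0.0629), Stat3 of -0.14 ± 0.17 and Socs3, a STAT3 target, of 0.48 ± 0.16 (adjusted p = 0.0978). Il6, Il22 and Il17a, cytokines known to induce SAA genes, were not well above background on any array.

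Receptors and partners of these proteins gave 2 rises and 1 fall among 9 tested (median -0.37), against 15.1% of all genes called. Tlr2, a receptor that SAA can activate, rose by 2.22 ± 0.32 (limma, adjusted p = 0.0165). Mmp9, the gelatinase that binds lipocalin-2, was at least 2.57-fold higher (limma, adjusted p = 0.0496), with the dim WT spots at their own values. Mmp9 was well above background on both IKKb(EE)IEC arrays and on neither WT array, so it passed the filter through IKKb(EE)IEC alone. Cd36, a scavenger receptor that binds SAA, fell by 4.18 ± 0.20 (adjusted p = 0.000892), with IKKb(EE)IEC replicate 1 not well above background. Tlr4, the receptor for calprotectin and lipopolysaccharide, and Fpr2, a receptor for SAA, were not well above background on any array. Cd14 had a value of 0.86 ± 0.25 (adjusted p = 0.0713).

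The relatives of the members did not move as 1 group. Among other S100 genes, 1 of 12 rose, 2 fell and 9 did not pass (median -0.12, against 15.1% of all genes called). S100a11, a calcium-binding S100 protein of epithelia, was at 4.94 and 5.19 in IKKb(EE)IEC against 2.15 and 2.14 in WT and rose by 2.92 ± 0.18 (limma, adjusted p = 0.00191). S100a1 fell by 1.03 ± 0.21 and S100a13 by 0.74 ± 0.16 (adjusted p = 0.0366 and 0.0425). Among other proteins with a whey acidic protein (WAP) domain, the fold that Slpi also has, and lipocalins, none of 8 tested rose and 2 fell (median -0.37, against 7.17% of all genes that fell). Wfdc21 was well above background on both WT arrays and neither IKKb(EE)IEC array, so it passed the filter through WT alone. It was at least 8.10-fold lower (limma, adjusted p = 0.00402), with the dim IKKb(EE)IEC spots at their own values. Wfdc15b fell by 1.38 ± 0.24 (limma, adjusted p = 0.0265). Wfdc17, a macrophage product, had a value of 2.16 ± 0.64 and did not pass (adjusted p = 0.0738).

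Genes listed here with the plasma acute phase proteins were mostly not measured. Of 25 on the array, 12 were well above background on no array and 6 were tested. Serpina3g, an interferon-inducible serpin, rose by 0.83 ± 0.19 and Itih4, an acute phase inhibitor, fell by 0.77 ± 0.16 (limma, adjusted p = 0.0463 and 0.0379), against 15.1% of all genes called. The median log2 fold change of the 6 was -0.73, and WT replicate 2 exceeded WT replicate 1 by a median of 0.53. The neighbours of the SAA and orosomucoid members, Saa4, Orm2 and Orm3, did not reach the filter. Over all these lists 13 genes passed, and 4 of them, S100a11, Wfdc21, Tnf and Cd36, also passed with IKKb(EE)IEC replicate 1 or replicate 2 omitted. The other 9 did not pass without IKKb(EE)IEC replicate 1 or without replicate 2. Such fits, with 1 IKKb(EE)IEC array left, called far fewer of all genes than the 15.1% of the main fit. A lost call was thus common over all genes and is not particular to these 9. Among the 9, the log2 fold changes without replicate 1 and 2 were 2.07 and 2.37 for Tlr2, 1.10 and 1.62 for Mmp9, 0.99 and 1.01 for Zc3h12a, 0.65 and 1.00 for Serpina3g, -0.77 and -0.77 for Itih4, -0.89 and -1.18 for S100a1, -0.70 and -0.77 for S100a13 and -1.20 and -1.55 for Wfdc15b.

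The size of several of these changes depended on the background correction. In the authors' value table and with the negative-control background, the log2 fold change was 0.64 and 0.67 for Tnf, 0.98 and 1.22 for Tlr2, -0.57 and -0.99 for Wfdc21, -0.53 and -0.83 for Wfdc15b and -2.27 and -2.72 for Cd36, and all 5 genes passed in both. It was 0.34 and 0.46 for Mmp9 and 0.29 and 0.40 for Zc3h12a, which passed in neither. With the plain normexp correction, which called no gene, the value was 0.37 for Tnf, -0.47 for Wfdc21 and -1.73 for Cd36. The folds given above as at least a value are therefore limits under the main setting only.

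**Figure D5:**
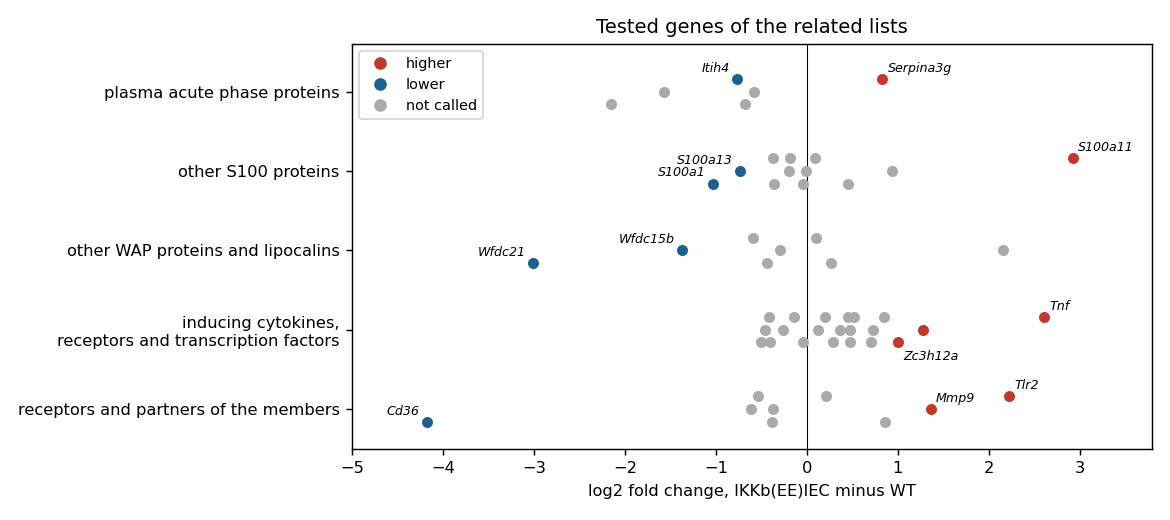
Log2 fold change (IKKb(EE)IEC minus WT, horizontal axis) of the tested genes of 5 related lists, 1 point per gene, with small vertical offsets for legibility only. Red points rose and blue points fell at an adjusted p below 0.05, 13 genes in all, of which 12 are labelled, and grey points did not pass.

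Markers of macrophages, another known source of Saa3, did not move as 1 group. Of 8 tested, Adgre1, C1qa and C1qc rose, Lyz2 fell and 4 did not pass (over all genes 7.97% rose and 7.17% fell). The 3 that rose, and Cd68, were well above background on both IKKb(EE)IEC arrays and on neither WT array. They passed the filter through IKKb(EE)IEC alone, which can raise the count of rises. C1qb was at 2.22 and 2.12 in IKKb(EE)IEC and at 2.36 and 2.27 in WT. It did not pass, nor did Csf1r, with a log2 fold change of 0.34. Cd163 and Mrc1 were not well above background on any array. The summed level of the 12 markers on the array was 313.0 and 312.9 in IKKb(EE)IEC and 930.1 and 2439 in WT, most of it from Lyz2, a near copy of the Paneth lysozyme Lyz1. The leukocyte marker Ptprc was at 2.07 and 1.95 in IKKb(EE)IEC and at 1.98 and 1.4 in WT. None of the 4 leukocyte markers tested passed, with log2 fold changes of 0.32 for Ptprc, 0.41 for Coro1a, 1.13 for Lcp1 (limma, adjusted p = 0.0536) and 1.44 for Laptm5 (median 0.77). For the last 3, both IKKb(EE)IEC arrays lay above both WT arrays, as they did for 28.3% of all genes. Laptm5 was at 0.15 and -1.81 in WT, where WT replicate 2 was not well above background. Fat cells also express Saa3, and of 6 adipocyte markers 3 and 3 were well above background in IKKb(EE)IEC, against 3 and 4 in WT, with Adipoq on no array. The part of these cells in the Saa3 signal was not tested.

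The tested genes whose 4 values, centred on their mean, lay nearest to those of a member were Ceacam10 for Saa3 and for Saa2 and Scai for Slpi. Ceacam10, a carcinoembryonic antigen family gene, was at a distance of 0.18 log2 units from Saa3 over the 4 arrays and of 0.89 from Saa2. It was at 2.33 and 2.97 in IKKb(EE)IEC and at -2.22 and 0.88 in WT, with a log2 fold change of 3.32 that did not pass (limma, adjusted p = 0.0711). It was the single gene outside the members within a distance of 1 of either. Scai lay 0.31 from Slpi as 1 of 462 genes within a distance of 1. With 4 arrays such a likeness is a description of these samples.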

How the data were processed

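Total RNA of isolated small-intestinal cells was labelled with Cy3 as cRNA and hybridised to Agilent design 014868, per the labels' protocols and the file headers. Per the file headers, Feature Extraction 9.5.3.1 made the deposited intensity of each spot, with background and spatial trend removed and a surrogate put in for dim spots. The authors' value table, also deposited as linear intensities, had column medians of 111.5 to 112.0 and followed the scanner's median signal (Spearman 0.999 to 1.00 across probes), so it was scaled between arrays (the sources used here do not say how). Also used were the deposited spot flags and the scanner's median signal, per the file headers. Both normexp corrections started from the mean signal and the local background of each spot, not from the processed signal.

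The 75th percentile of each array was subtracted after taking log2 of the processed signals. Control spots and non-uniform spots (1 to 7 per array) were left out, and probes well above background on fewer than 2 of the 4 arrays were dropped. A gene was represented by its brightest kept probe. Names follow RefSeq (GRCm38.p6) for the 24367 probes whose accession matched, and all 12 member probes matched.

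The test was limma's moderated test (limma 3.58.1, R 4.3.3), two-sided, with adjustment by Benjamini-Hochberg across 12446 genes, a threshold of 0.05 and 3.51 prior degrees of freedom. The intervals of 95% use 5.51 degrees of freedom. With 2 arrays per genotype no permutation of the samples can reach the threshold, and the number of arrays limits the precision. A fold given as "at least" sets the brighter genotype's mean against the mean, over the dim arrays, of the lowest detected value, or of the dim probe's value where that was higher. It is not a strict limit. The functions were tested on simulated data. Named are all members, from each related list up to 4 passing genes with the largest change, and the nearest gene of each tested member. For 1 list gene and for the nearest gene of Saa1 the result is not reported here. Cebpd, Cebpb, Stat3, Socs3, Wfdc17 and other genes given beyond this rule were chosen after their values were seen. The members and lists were chosen with earlier results of these data known.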

Additional observations from a re-analysis of the deposited data

How the results depend on the processing

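The 4 tested members kept their direction under all alternatives run, and the count of calls, 0 higher and 0 lower, did not hold. The higher count was 3 and the lower count 1 with a shift by the array median. The higher count was 1 (Saa3) with the authors' value table and 1 (Saa3) with normexp and a background from 153 negative control spots, an alternative chosen after seeing the data. The plain normexp correction, which fitted a background mean below 0 on 2 of the arrays, called 0 genes in all, 171 having an unadjusted p below 0.05. Leaving out 1 array gave 0 to 3 higher and 0 to 1 lower members. With the replicate number as a block, 3 members were called higher, against 12.1% of all genes, Saa1, Saa2 and Saa3 (limma, adjusted p = 0.0192, 0.0394 and 0.0360). The labels give no shared litter or day, and deviations of same-numbered arrays correlated at 0.11 across genes, so the numbers are not taken to pair the samples. Over all genes, 992 were higher and 892 lower. These counts were 501 and 342 with no filter on dim probes, which tests all 10 members and called 0, 1339 and 938 over single probes, 914 and 587 with the block, 2628 and 3534 without WT replicate 1, 1911 and 2262 without WT replicate 2, and 165 and 82, and 225 and 105, without IKKb(EE)IEC replicate 1 and 2. The share of higher genes among the calls was 52.7%, against 63.2% with the median shift, 67.8% with the negative-control background and 40.0% with probes well above background on all arrays. Of the 13 list genes that passed, 11 passed with the median shift (not Itih4 or S100a13), 12 with quantile normalization (not Mmp9), 11 with the authors' value table (not Zc3h12a or Mmp9), 5 with no filter, 9 with the block, 0 with plain normexp and 13 with WT replicate 1 or replicate 2 left out, and none changed sign. The causes of these shifts were not tested. Dim signals limit what can be said of Lcn2, Hp, Orm1, Lbp, S100a8 and S100a9.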
